A study of Mus musculus with 6 samples.

Results

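The tumor suppressor p53, encoded by Trp53, and 35 genes of its pathway, most of them its targets or inhibitors, were followed in TuBo cells with and without p140Cap. The 36 genes were taken by symbol from the 21960 genes of the deposited counts, and all 36 had a row. TuBo is a line grown from the mammary tumor of one BALB/c-MMTV-NeuT mouse, in which the mammary-active MMTV promoter drives the NeuT oncogene, so both groups share that origin and transgene. The 3 mock libraries are labelled wt, and the 3 p140Cap libraries come from cells that received p140Cap cDNA in the retroviral vector pBabe-puro, were selected with puromycin and are, by the study's methods, a pool of single-cell clones. The labels speak of cell lines in one place and of mice in another, and nothing in them says whether replicates were separate cultures, so p-values measure the spread between these libraries, which may be technical.

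p53 is a transcription factor that DNA damage and other stresses stabilize. In resting cells it is kept low by Mdm2, a ubiquitin ligase that marks it for degradation, and held inactive by the related Mdm4. Once active it binds DNA as a tetramer and induces genes that stop the cell cycle, repair DNA, change metabolism or kill the cell, and it also induces Mdm2, its own inhibitor. Since p53 is controlled mainly as a protein, the level of Trp53 mRNA is not a measure of its activity.

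Depth ranged from 13770385 to 75506562 reads per library, with every mock library deeper than the p140Cap libraries. Srcin1, the gene of p140Cap, was between 12.8 and 16.6 CPM (reads scaled to library size with TMM factors) in the mock libraries and between 2244 and 2520 CPM in the p140Cap libraries. The epithelial markers Epcam, Cdh1, Krt8, Krt18 and Erbb2 were abundant in every library, while Krt19 had at most 5 reads, and these 6 summed to between 5.25e+03 and 5.57e+03 CPM in mock and between 6.18e+03 and 6.34e+03 CPM in p140Cap cells. Of the 5 leukocyte markers, 4 had no read in any library, and the summed level of the 4 fibroblast markers was 9.93 to 10.5 CPM in mock and 11.3 to 14.1 CPM in p140Cap cells, with no read on Col1a2 or Dcn. The 3 endothelial markers summed to 0.15 to 0.427 CPM in mock and 0.477 to 0.734 CPM in p140Cap cells, nearly all from Pecam1, with no read on Kdr. The part of these differences in the results was not tested. In bulk RNA, a change in each cell and a change in the share of cells that express a gene cannot be told apart.

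Of the 36 genes, 34 had enough reads for a test, and 25 of these (73.5%) were called different between p140Cap and mock cells, beside 71.1% of all 11800 genes tested. A call means a Benjamini-Hochberg adjusted p under 0.05 in the quasi-likelihood test of edgeR. Of the 34, 12 were lower (35.3%) and 13 higher (38.2%) in p140Cap cells, beside 35.9% and 35.2% of all genes, so the module changed about as often as genes in general. The 3 libraries of one group did not overlap those of the other for the same numbers of genes, 12 below and 13 above, beside 73.4% of all genes in either direction, 37.2% below and 36.3% above. Its median log2 fold change was -0.04, beside 0.00 over all genes. The median size of a change, without its sign, was 0.37 among the 34 and 0.32 among all genes. A change of 1 log2 unit or more was a decrease for 3 genes and an increase for 2, beside 5.04% and 4.93% of all genes.

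By role, the counts were as follows. All 7 changed genes among the 9 tested death receptor and apoptosis genes were lower, and all 4 changed genes among the 5 DNA repair genes were higher, where 35.9% of all genes tested were lower, 35.2% higher and 71.1% called in either direction. Of the 10 growth arrest genes, 4 were higher (40.0%, near the share of all genes), 1 was lower and 5 were not called. The nutrient and redox genes held the largest increase, that of Trp53inp1, and one of the largest decreases, that of Tigar. The number of genes in each role is small, and no test of one role against another was made. Roles were assigned with earlier results of these data known, so a shared direction within a role describes that grouping only. Of the death genes kept in another list, Apaf1, Shisa5 and, less securely, Bbc3 were higher, and Bax was lower.

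**Figure D1:**
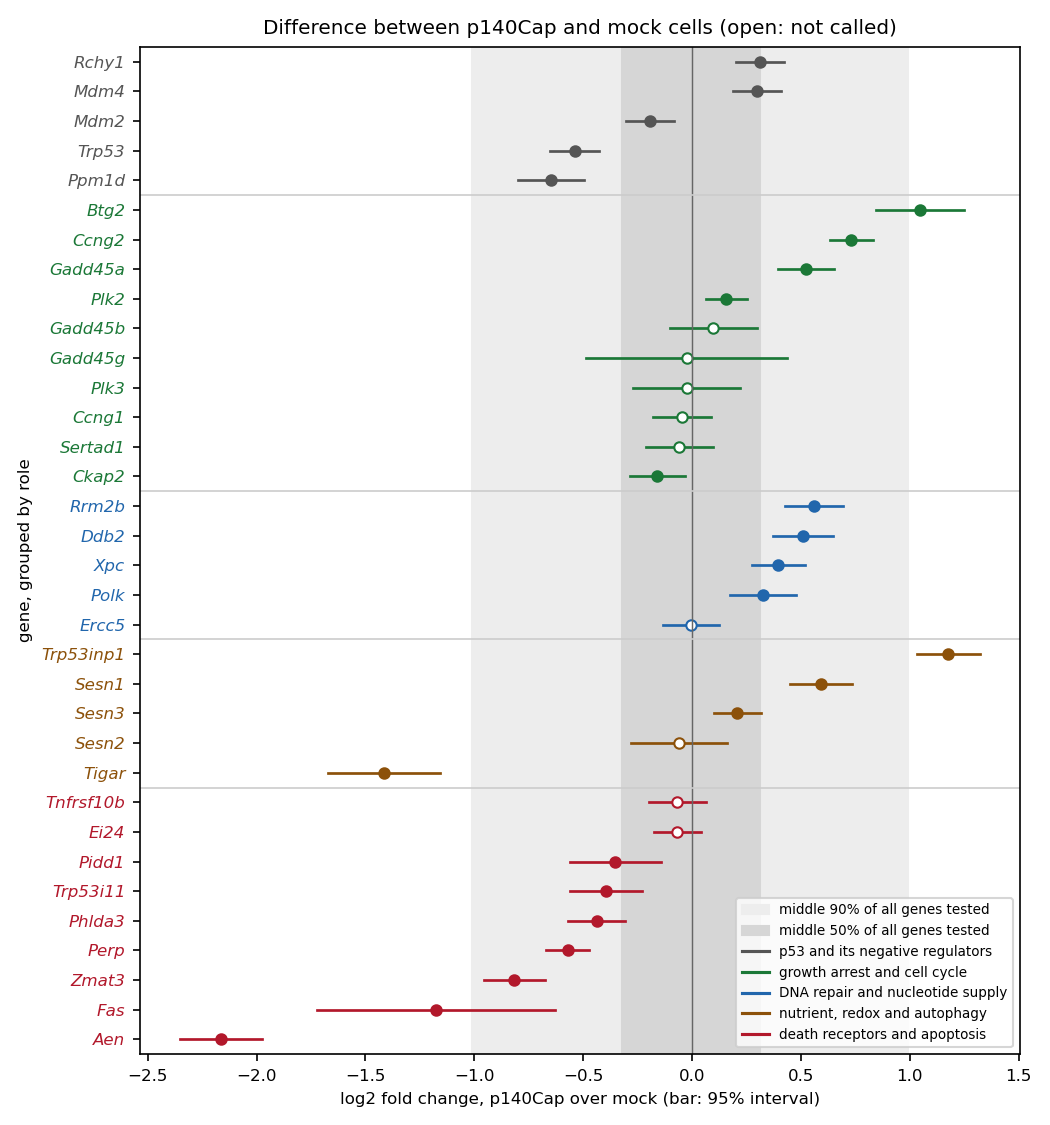
Log2 fold change of the 34 tested genes, p140Cap over mock, with 95% intervals, by role; filled points were called (adjusted p under 0.05) and open points were not. Grey bands hold the middle 50% and 90% of the 11800 genes tested. All 9 genes of the death group lie left of 0, and 4 of the 5 repair genes lie right of it.

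Trp53 itself (ENSMUSG00000059552; chromosome 11 of GRCm38.p6, 69580348 to 69591873, plus strand) was lower. It was at 115, 114 and 114 CPM in the mock libraries and 72.6, 82.9 and 80.8 CPM in the p140Cap libraries, so the groups did not overlap. Its log2 fold change was -0.54 (SE 0.05, edgeR, adjusted p = 1.25e-07), a level 31.2% below that of mock cells. Wrap53, which encodes a telomerase and Cajal body protein, overlaps Trp53 on the other strand, and the sources used here do not give whether reads were counted by strand.

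The 4 genes whose products restrain p53 split evenly. With Trp53, all 5 genes of this role were called, 3 lower (60.0%) and 2 higher (40.0%). Over all genes tested, 71.1% were called, 35.9% lower and 35.2% higher. Mdm2 (ENSMUSG00000020184; chromosome 10, 117688875 to 117710758, minus strand), at once an inhibitor and a classic target, was at 78.4, 77.2 and 72.2 CPM in mock and 64.4, 66.0 and 69.3 CPM in p140Cap cells. The groups lay close together without overlapping, and the log2 fold change was -0.19 (SE 0.05, edgeR, adjusted p = 0.00374). Mdm4 went the other way, from 206, 204 and 184 CPM to 243, 235 and 253 CPM, a log2 fold change of 0.30 (SE 0.05, edgeR, adjusted p = 8.69e-05). The lowest p140Cap library stood above the highest mock library.

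Ppm1d (ENSMUSG00000020525; chromosome 11, 85311254 to 85347071, plus strand) encodes the phosphatase Wip1, which switches off p53 and the kinases upstream of it and is itself a p53 target. It was at 21.1, 21.9 and 20.5 CPM in mock and 13.2, 13.8 and 13.5 CPM in p140Cap cells. This was the largest decrease of the regulators, at -0.65 on the log2 scale (SE 0.07, edgeR, adjusted p = 4.58e-07), with tight values in both groups. Rchy1, the gene of the p53 ubiquitin ligase Pirh2, was higher, from 51.1 to 63.4 CPM on average, with a log2 fold change of 0.31 (SE 0.05, edgeR, adjusted p = 4.04e-05).

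**Figure D2:**
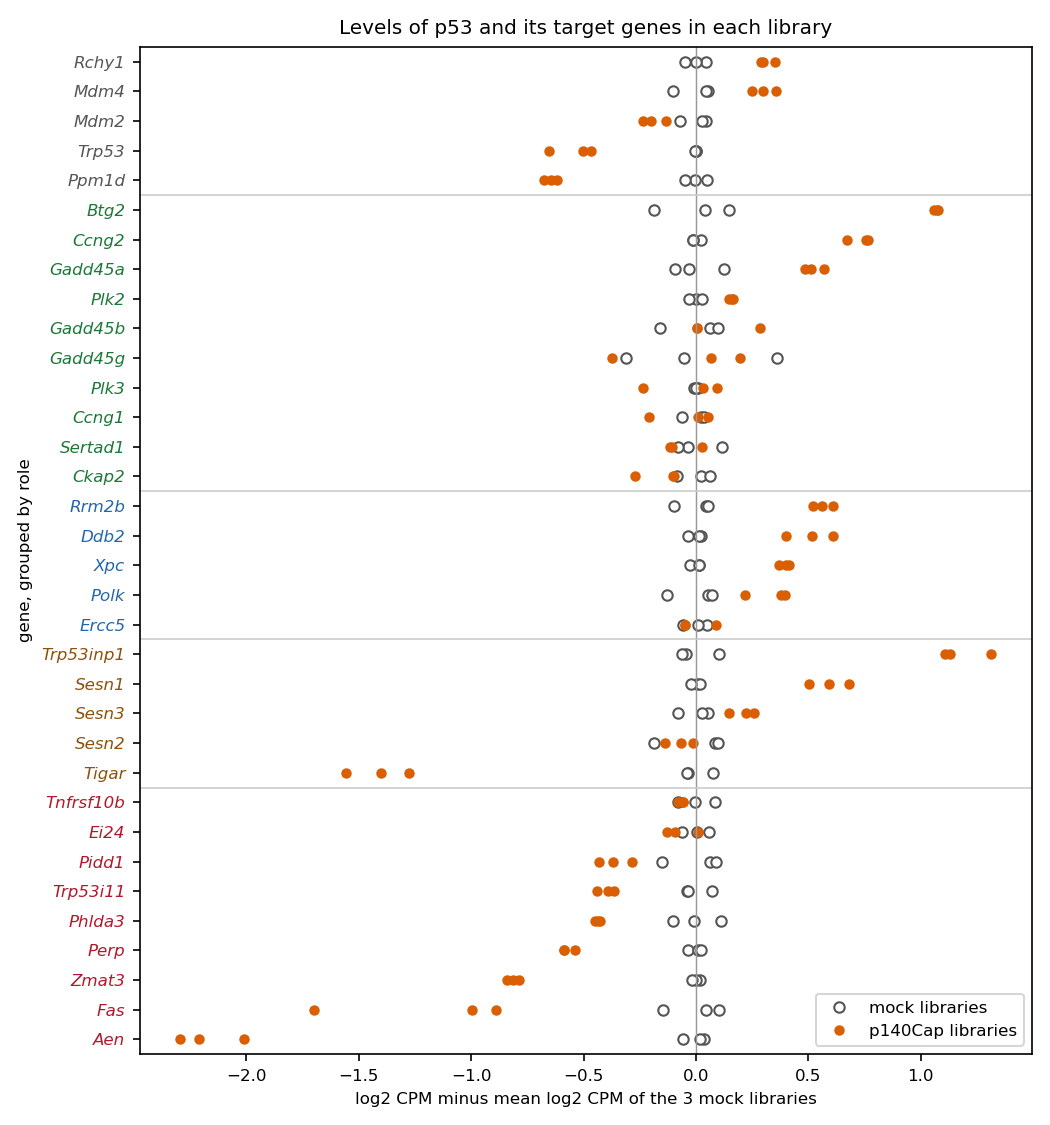
Log2 CPM of each library minus the mean of the 3 mock libraries for the 34 tested genes, by role; open circles are mock and filled circles p140Cap libraries. Aen, Tigar and Fas lie far to the left in all 3 p140Cap libraries, and Btg2 and Trp53inp1 lie about 1 log2 unit or more to the right.

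Among the growth arrest and cell cycle genes, 4 of 10 were higher (40.0%, near the 35.2% of all genes), 1 was lower (35.9% of all genes) and 5 were not called, so 5 of 10 were called, beside 71.1% of all genes. Btg2 (ENSMUSG00000020423; chromosome 1, 134074865 to 134079155, minus strand), an antiproliferative factor that recruits an mRNA deadenylase complex, had the largest increase. It rose from 7.67, 6.08 and 7.12 CPM to 14.6, 14.4 and 14.6 CPM, which is 2.07 times the mock level. The log2 fold change was 1.05 (SE 0.10, edgeR, adjusted p = 4.94e-08), and 90.8% of all genes tested changed by less.

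The G-type cyclins parted. Ccng2 (chromosome 5, 93267573 to 93276231), an unusual cyclin linked to growth arrest and also driven by FOXO factors, was at 83.9, 81.8 and 81.9 CPM in mock and 140, 132 and 139 CPM in p140Cap cells. Its log2 fold change was 0.73 (SE 0.05, edgeR, adjusted p = 7.83e-10), the smallest adjusted p of this role. Its relative Ccng1, among the most constant p53 targets across tissues, was at 69.9, 70.7 and 66.1 CPM in mock and 69.3, 59.5 and 71.6 CPM in p140Cap cells. These ranges overlapped, and the log2 fold change of -0.05 had a 95% interval of -0.18 to 0.09 (edgeR, adjusted p = 0.512).

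The Gadd45 genes encode small acidic stress proteins that bind PCNA and the kinase Map3k4. Gadd45a, the member most closely tied to p53, was at 42.0, 40.3 and 46.8 CPM in mock and 60.2, 63.8 and 61.3 CPM in p140Cap cells. The increase was 0.52 on the log2 scale (SE 0.06, edgeR, adjusted p = 8.09e-07), with no overlap between groups. The other members were not called. Gadd45b, better known as a target of NF-κB, was at 14.6, 12.5 and 14.95 CPM in mock and 14.04, 17.0 and 14.03 CPM in p140Cap cells, and its log2 fold change of 0.10 had a 95% interval of -0.10 to 0.30. Gadd45g was a rare transcript, at 1.89, 1.58 and 2.52 CPM in mock and 1.52, 2.25 and 2.06 CPM in p140Cap cells. Its interval, -0.49 to 0.44, was the widest of the genes not called, so a moderate change of Gadd45g in either direction was not detectable at this depth.

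The polo-like kinase gene Plk2, which is induced by stress and takes part in centriole duplication, was at 186, 189 and 181 CPM in mock and 208, 207 and 205 CPM in p140Cap cells. The increase was small, 0.16 on the log2 scale (SE 0.04, edgeR, adjusted p = 0.00472), but larger than the spread of either group. Plk3, at 5.07, 5.13 and 5.10 CPM in mock and 5.21, 5.45 and 4.33 CPM in p140Cap cells, was not called. Its log2 fold change was -0.02, with an interval of -0.27 to 0.22. Sertad1, which encodes a CDK4-binding protein, had a log2 fold change of -0.06 and was not called either (95% interval -0.21 to 0.09).

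Ckap2, which encodes a spindle protein, was the one decrease of this role, at -0.16 (SE 0.06, edgeR, adjusted p = 0.0255). The call was lost without mock replicate 1 (adjusted p = 0.0764, edgeR), mock replicate 2 (0.0799) or p140Cap replicate 2 (0.132), and with the replicate number as a block (adjusted p = 0.0547, edgeR) or with libraries thinned to the smallest total (0.0547).

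Of the 5 DNA repair genes, 4 were higher, beside 35.2% of all genes. Rrm2b (ENSMUSG00000022292; chromosome 15, 37923952 to 37961119, minus strand), which encodes the p53-inducible subunit of ribonucleotide reductase and so supplies nucleotides outside S phase, was at 24.98, 25.1 and 22.6 CPM in mock and 36.9, 35.8 and 34.7 CPM in p140Cap cells. This was a log2 fold change of 0.56 (SE 0.06, edgeR, adjusted p = 6.24e-07). A processed pseudogene, Gm3362, overlaps Rrm2b on the same strand, so how reads were split between them is uncertain.

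Ddb2 and Xpc encode the damage sensors of global genome nucleotide excision repair. Ddb2 was 22.7 ± 0.505 CPM in mock against 32.4 ± 2.34 CPM with p140Cap (SD over 3 libraries), which gave a log2 fold change of 0.51 (SE 0.07, edgeR, adjusted p = 2.83e-06). Xpc was 25.5 ± 0.431 and 33.6 ± 0.528 CPM, a log2 fold change of 0.40 (SE 0.06, edgeR, adjusted p = 1.15e-05). Polk, the gene of the translesion polymerase kappa, was 24.99 ± 1.89 and 31.4 ± 2.10 CPM, a log2 fold change of 0.32 (SE 0.07, edgeR, adjusted p = 0.000681). For all 3 genes the p140Cap libraries stood above the mock libraries. Ercc5, which encodes the endonuclease XPG of the later incision step, was 32.4 ± 1.21 CPM in mock and 32.3 ± 1.81 CPM in p140Cap cells, and the 95% interval of its log2 fold change was -0.14 to 0.13. Acp2 overlaps Ddb2 and Cert1 overlaps Polk, each on the other strand.

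The nutrient, redox and autophagy genes spread the widest. Trp53inp1 (ENSMUSG00000028211; chromosome 4, 11156441 to 11174379, plus strand), whose product is a p53 cofactor in the nucleus and promotes autophagy in the cytoplasm, was at 25.01, 22.6 and 22.3 CPM in mock and 57.9, 50.9 and 50.1 CPM in p140Cap cells. It rose 2.26-fold, a log2 fold change of 1.18 (SE 0.07, edgeR, adjusted p = 2.25e-10), which was the largest increase of the 34 genes. Each p140Cap library was far above the mock libraries.

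Tigar (ENSMUSG00000038028; chromosome 6, 127085116 to 127109552, minus strand) encodes a phosphatase that lowers glycolytic flux and favors the pentose phosphate pathway. Its reads numbered 625, 301 and 251 in mock and 40, 47 and 40 in p140Cap cells. This is 8.17, 7.57 and 7.54 CPM against 2.64, 3.20 and 2.94 CPM, so no p140Cap library came near the mock range. The log2 fold change was -1.42 (SE 0.12, edgeR, adjusted p = 2.55e-08), or 2.67 times less, and 95.2% of all genes tested changed by less.

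Sestrins dampen mTORC1, the kinase complex that couples nutrients to growth. Sesn1, the sestrin most closely tied to p53, was at 16.7, 16.8 and 16.4 CPM in mock and 23.6, 26.7 and 25.1 CPM in p140Cap cells, a log2 fold change of 0.59 (SE 0.07, edgeR, adjusted p = 7.28e-07). Sesn3, a FOXO target, was at 143, 141 and 131 CPM in mock and 161, 166 and 153 CPM in p140Cap cells. Its increase was smaller, 0.21 on the log2 scale (SE 0.05, edgeR, adjusted p = 0.0016), and again the groups did not overlap. Sesn2, the sestrin that senses leucine and is also driven by ATF4, was at 8.31, 10.03 and 10.1 CPM in mock and 9.36, 8.58 and 9.03 CPM in p140Cap cells. Here the groups overlapped, and the log2 fold change of -0.06 had an interval of -0.28 to 0.16. Cep57l1 overlaps Sesn1 on the other strand, and non-coding genes overlap Sesn1 and Sesn2 on the same strand.

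Dram1, a lysosomal membrane protein of autophagy, was almost silent. It had 2, 2 and 3 reads in the mock and 0, 0 and 1 reads in the p140Cap libraries, too few for a test. Over each group these are 7 reads and 1 read, a normalized ratio of mock over p140Cap of 2.03 with a 95% exact binomial interval of 0.261 to 91.7 (counting error only).

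In the death receptor and apoptosis group, 7 of the 9 tested genes were lower (77.8%, beside 35.9% of all genes) and none was higher (35.2% of all genes), while the other two, Tnfrsf10b and Ei24, were not called. Aen (ENSMUSG00000030609; chromosome 7, 78895927 to 78911209, plus strand), which encodes the apoptosis-enhancing nuclease, had the largest change of the whole module. It had 1878, 1042 and 861 reads in the mock and 79, 93 and 75 reads in the p140Cap libraries. Scaled, it was at 24.5, 26.2 and 25.9 CPM against 5.21, 6.33 and 5.51 CPM, with a wide gap between groups. The log2 fold change was -2.16 (SE 0.09, edgeR, adjusted p = 4.94e-12), which is 4.48 times less, and stayed between -2.25 and -2.10 under the 14 alternatives. By log2 fold change, Aen stood at position 134 from the lowest among the 11800 genes.

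Fas (ENSMUSG00000024778; chromosome 19, 34290647 to 34327775, plus strand), the death receptor for Fas ligand, had few reads, with 118, 64 and 45 in the mock and 7, 11 and 11 in the p140Cap libraries. These were 1.54, 1.61 and 1.35 CPM against 0.461, 0.749 and 0.808 CPM, so the groups did not overlap. Its log2 fold change of -1.18 was less precise than the others (SE 0.26, edgeR, adjusted p = 0.000651). The 424 tested genes of chromosome 19 had a median log2 fold change of -0.34, and their part in the result for Fas was not tested. Such a median was not computed for the chromosomes of the other genes.

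Zmat3 (ENSMUSG00000027663; chromosome 3, 32334792 to 32365665, minus strand), a p53-induced RNA-binding protein that controls splicing and mRNA stability, was at 27.4, 27.0 and 26.7 CPM in mock and 15.1, 15.7 and 15.4 CPM in p140Cap cells. With hardly any spread in either group, it fell by 0.82 on the log2 scale (SE 0.07, edgeR, adjusted p = 1.23e-08). Perp (chromosome 10, 18845071 to 18857073), a tetraspan membrane protein of desmosomes and an effector of p53 death, was at 114, 117 and 118 CPM in mock and 77.6, 77.4 and 80.2 CPM in p140Cap cells. Its log2 fold change was -0.57 (SE 0.05, edgeR, adjusted p = 1.54e-08).

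The smaller decreases were those of Phlda3, Trp53i11 and Pidd1. Phlda3, which blocks membrane binding of Akt, went from 53.3 ± 3.98 to 39.3 ± 0.357 CPM (SD over 3 libraries), a log2 fold change of -0.44 (SE 0.06, edgeR, adjusted p = 7.46e-06). Trp53i11, a p53-induced gene, had a log2 fold change of -0.39 (SE 0.08, edgeR, adjusted p = 0.000266), and the protein-coding gene Tspan18 overlaps it on the other strand. Pidd1, the scaffold of the caspase-activating PIDDosome, had one of -0.35 (SE 0.10, edgeR, adjusted p = 0.00429). For all 3 the highest p140Cap library was below the lowest mock library.

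The second death receptor, Tnfrsf10b, which binds TRAIL, was 32.4 ± 1.84 CPM in mock and 30.9 ± 0.268 CPM in p140Cap cells. It was not called, and its log2 fold change of -0.07 had an interval of -0.20 to 0.06. The interval was -0.18 to 0.04 for Ei24, an endoplasmic reticulum protein of autophagy and cell death, also at -0.07. Eda2r, the receptor of ectodysplasin A2, had 8, 5 and 3 reads in the mock and 4, 2 and 2 in the p140Cap libraries and was not tested. The ratio of its pooled and normalized reads, mock over p140Cap, was 0.581 (95% exact binomial interval 0.235 to 1.57, counting error only).

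Levels of different genes were compared per length, as CPM per kilobase of annotated exons (RPKM). Perp was highest in mock cells at 58.1 RPKM, followed by Plk2 at 36.2 and Gadd45a at 24.3 RPKM. In p140Cap cells Plk2 at 40.4 RPKM stood beside Perp at 39.1 RPKM, and Gadd45a at 34.8 RPKM came next. Trp53 was at 15.5 and 10.7 RPKM, and Mdm2 and Mdm4 were alike in mock cells at 9.85 and 9.71 RPKM but apart in p140Cap cells at 8.63 and 11.9 RPKM. Of the 34 tested genes, Fas was lowest at 0.647 and 0.290 RPKM, and the untested Dram1 and Eda2r were lower still. Lengths join all annotated exons of a gene, so genes with long and rarely used exons read too low.

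**Figure D3:**
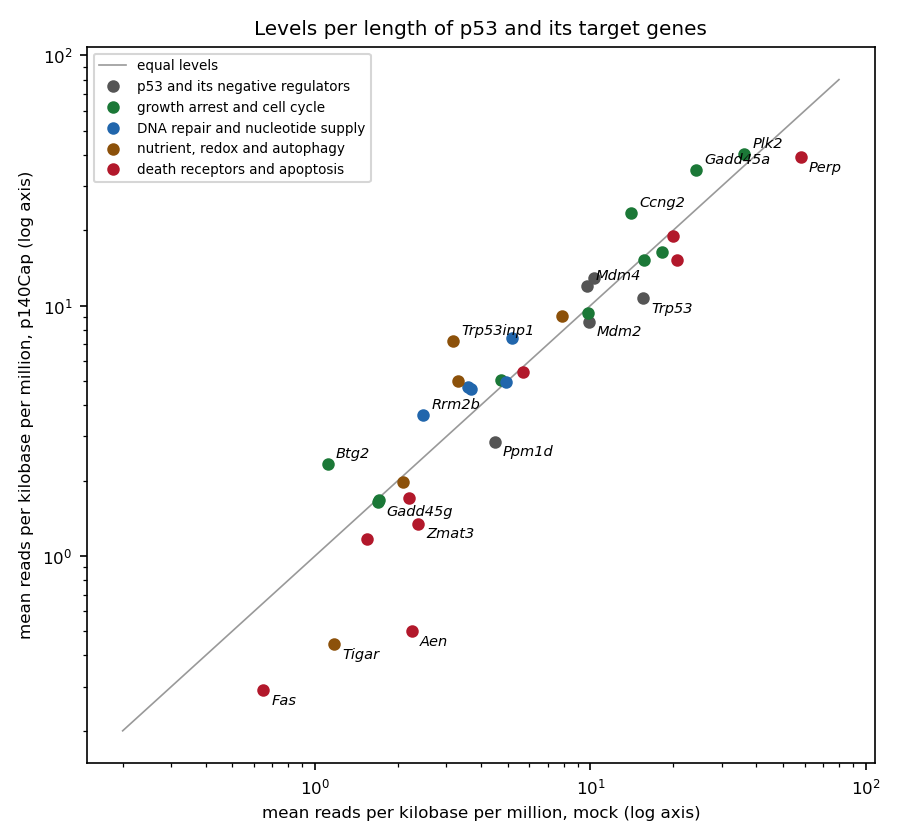
Mean level per length of the 34 tested genes in mock (horizontal) and p140Cap cells (vertical), in RPKM on log axes; each point is 1 gene, colored by role, and the line marks equal levels. Perp is the most abundant gene in mock cells, and Aen, Tigar and Fas lie furthest below the line.

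Ratios of 2 genes within a library do not depend on how libraries are scaled, and 9 pairs of relatives or partners were compared this way. There were 0.381, 0.379 and 0.392 reads of Mdm2 per read of Mdm4 in the mock and 0.265, 0.281 and 0.274 in the p140Cap libraries, a log2 difference of -0.49. The ratio of Mdm2 to Trp53 was 0.684, 0.675 and 0.632 in mock and 0.887, 0.796 and 0.857 in p140Cap cells. For Ppm1d there were 0.184, 0.191 and 0.179 reads per Trp53 read in mock and 0.182, 0.166 and 0.167 in p140Cap cells, and these ranges overlapped.

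Paralogs were set against Gadd45a, Sesn1, Plk2 and Ccng1 in the same way. Gadd45b was at 0.326 ± 0.0197 reads per Gadd45a read in mock and 0.243 ± 0.0208 in p140Cap cells (SD over 3 libraries), and Gadd45g at 0.0461 ± 0.00732 and 0.0313 ± 0.00539. Sesn2 was at 0.570 ± 0.0631 and 0.359 ± 0.0376 reads per Sesn1 read, and Sesn3 at 8.31 ± 0.321 and 6.38 ± 0.401. Plk3 was at 0.0275 ± 0.00053 and 0.0242 ± 0.00272 reads per Plk2 read. The cyclins stood at 1.20 ± 0.0411 reads of Ccng2 per Ccng1 read in mock and 2.06 ± 0.135 in p140Cap cells. In 8 of the 9 pairs the groups did not overlap, each with an exact two-sided permutation p of 0.1, the smallest that 3 against 3 libraries allow (0.113 after Benjamini-Hochberg adjustment over the 9 pairs), so no pair passed a threshold of 0.05. Single genes did not overlap between groups in 73.4% of all cases, and the share over other pairs of genes was not computed.

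**Figure D4:**
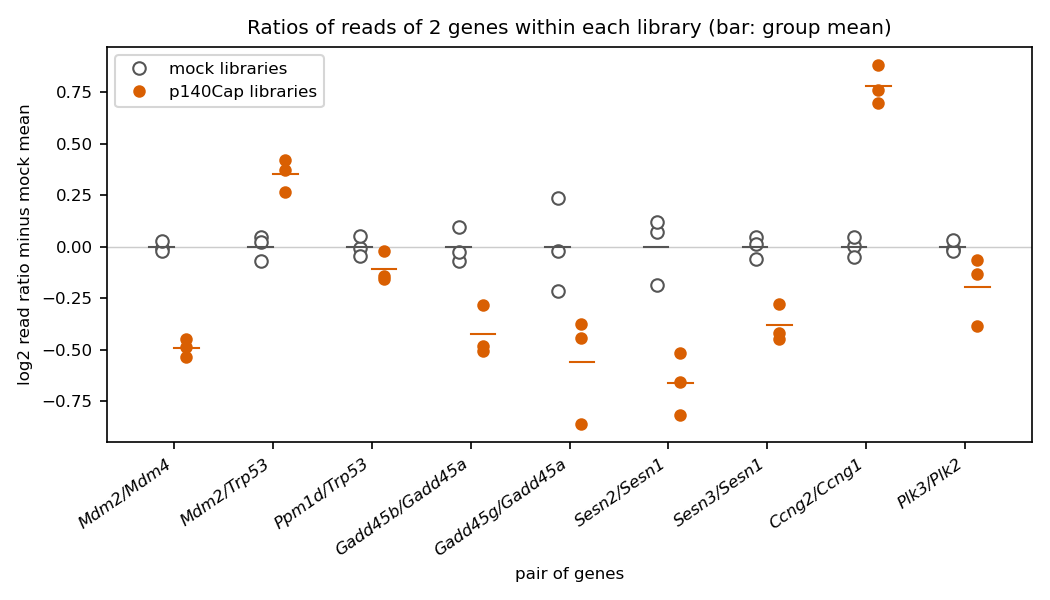
Log2 ratio of the reads of 2 genes in each library, minus the mock mean of that pair; open circles are mock and filled circles p140Cap libraries, and short bars are group means. The groups overlap for Ppm1d/Trp53 alone, and Ccng2/Ccng1 shows the largest shift, 0.78.

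p53 binds a pair of short half-sites, and matches to 1 half-site were sought in RefSeq promoter windows of GRCm38.p6, from 250 bases before a transcription start to 50 bases after it. The half-site reads the same on both strands, so 1 search covers both. Windows were at hand for 29 of the 36 genes, and 11 of the 29 (37.9%) held at least 1 exact match, beside 9.55% of all 27025 genes with a window. Most of the 36 genes were picked as p53 targets, so that share is a description of the list. The matches of genes that rose, fell and were not called are shown for comparison, 5′ to 3′ on the strand of the gene, with the half-site in capitals and 10 bases of flank on each side.
Gadd45a, rose, chr6:67037428-67037457, minus strand: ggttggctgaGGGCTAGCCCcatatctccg
Sesn1, rose, chr10:41887256-41887285, plus strand: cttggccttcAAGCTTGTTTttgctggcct
Polk, rose, chr13:96519399-96519428, minus strand: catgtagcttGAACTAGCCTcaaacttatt
Rchy1, rose, chr5:91962627-91962656, minus strand: cactatgacaGAGCTTGTCTcctcaaggtg
Aen, fell, chr7:78895927-78895956, plus strand: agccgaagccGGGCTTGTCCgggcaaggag
Ppm1d, fell, chr11:85311112-85311141, plus strand: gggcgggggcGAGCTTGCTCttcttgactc
Trp53, fell, chr11:69580274-69580303, plus strand: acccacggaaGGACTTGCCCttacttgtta
Mdm2, fell, chr10:117710925-117710954, minus strand: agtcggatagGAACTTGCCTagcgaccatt
Ckap2, fell, chr8:22186003-22186032, minus strand: ctgtgtctgaAGACATGTCCtgacttgtca
Ccng1, not called, chr11:40755452-40755481, minus strand: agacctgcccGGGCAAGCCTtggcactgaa
Ei24, not called, chr9:36797325-36797354, minus strand: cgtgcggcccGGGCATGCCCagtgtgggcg

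Of these 11 genes, 5 were lower, 4 were higher and 2 were not called, where 35.9% of all genes tested were lower, 35.2% higher and 71.1% called. Of the 16 tested genes with a window and no match, 5 were lower, 5 higher and 6 not called. With so few genes nothing is read from these counts. The Aen match begins 10 bases after one annotated start and 121 bases before another. The Sesn1, Polk and Rchy1 matches lie within the RefSeq span of each gene, before an inner annotated start and not at its outer end. No window was at hand for Trp53inp1, Rrm2b, Ddb2, Xpc, Zmat3, Perp and Tnfrsf10b, and sites outside these windows were not sought.

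A narrower list of 28 of the 36 genes, those with the best claim to direct induction by p53, gave a similar count. Of its 26 tested members, 10 were lower (38.5%) and 9 were higher (34.6%), near the 35.9% and 35.2% of all genes tested, with a median log2 fold change of -0.06. Of the 8 genes left out of it, among them Trp53, Mdm4, Ccng2 and Sesn3, 2 were lower and 4 were higher.

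Other genes of the pathway were read from a list of 47, of which 46 had a row under that symbol and 39 were tested. Of the 39, 14 were lower (35.9%) and 18 were higher (46.2%), beside 35.9% and 35.2% of all genes tested. Cdkn1a, the CDK inhibitor p21 and the best known arrest target of p53, was at 47.1, 44.1 and 48.6 CPM in mock and 74.5, 79.8 and 72.4 CPM in p140Cap cells. That is a log2 fold change of 0.70 (SE 0.06, edgeR, adjusted p = 1.02e-08), so it was higher in each p140Cap library than in any mock library, like Btg2 and Gadd45a.

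Among the mitochondrial death genes, Bax was lower, from 49.6, 48.1 and 54.1 CPM to 38.0, 40.3 and 41.1 CPM, a log2 fold change of -0.34 (SE 0.06, edgeR, adjusted p = 7.92e-05). The protein-coding gene Gm45808 overlaps Bax on the same strand, so how reads were split between them is uncertain. Bbc3, which encodes Puma, had a log2 fold change of 0.24 (SE 0.09, edgeR, adjusted p = 0.0296), but its groups overlapped, and 7 of 14 alternatives lost the call. Pmaip1, which encodes Noxa, had 1 read in one mock library and no other. Apaf1, which encodes the core of the apoptosome, had a log2 fold change of 0.28 (SE 0.06, edgeR, adjusted p = 0.000497), and Shisa5, which encodes the p53-induced death protein Scotin, one of 0.76 (SE 0.06, edgeR, adjusted p = 7.3e-09). For both, each p140Cap library stood above the mock libraries, unlike the 7 called genes of the death group above, and Atrip and Trex1 overlap Shisa5 on the other strand. The largest increases of the list were those of the metalloreductase gene Steap3 at 0.96 (SE 0.17, edgeR, adjusted p = 8.22e-05), the hydrolase gene Cmbl at 0.87 (SE 0.10, adjusted p = 8.02e-07) and the cytokine gene Lif at 0.79 (SE 0.06, adjusted p = 2.81e-09).

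The largest decreases were those of adenylate kinase gene Ak1 at -1.63 (SE 0.09, edgeR, adjusted p = 1.39e-10), the checkpoint kinase gene Chek1 at -0.96 (SE 0.08, adjusted p = 1.34e-08) and Sfn, which encodes the arrest protein 14-3-3 sigma, at -0.50 (SE 0.08, adjusted p = 5.22e-05). Upstream of p53, the kinase genes Atm, Chek1, Chek2 and Prkdc were lower, which is 4 of 5, beside 35.9% of all genes tested. Atr was not called (log2 fold change 0.11, edgeR, adjusted p = 0.0852), though it was without mock replicate 1 (0.0444) or p140Cap replicate 2 (0.0366). Of the 25 tested targets on the list, 15 were higher (60.0%) and 8 were lower (32.0%), beside 35.2% and 35.9% of all genes tested. Cdkn2a, whose Arf product blocks Mdm2, and the p53 relative Trp73 had no read in any library, which allows a level of up to 0.220 CPM in the shallowest library, as 3 reads would give. Trp63, the other relative, had between 5 and 12 reads per library and was not tested.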

How the data were processed

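Poly(A) RNA of 3 mock and 3 p140Cap TuBo libraries was sequenced after TruSeq preparation, which the study's methods give as stranded. The authors deposited counts, the whole number of reads per gene and library for 21960 genes, without normalization. The submitters' processing notes name STAR 2.5, RSEM 0.1.1 and mm10. By contrast, the paper's data statement lists mouse GRCm39, and its methods name docker4seq, so the build behind the counts is uncertain. The roles of the tools, the annotation, the strand setting and any rounding of estimated counts were not given in the sources used here.

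Counts were scaled with TMM factors, filtered with filterByExpr and tested across 11800 genes by quasi-likelihood in edgeR 4.0.16 (R 4.3.3). The model held the group alone, and adjusted p-values (Benjamini-Hochberg) under 0.05 were called. SE is the size of the log2 fold change over the root of F. Total reads were 13770385 to 75506562 per library, with mock deeper by a factor of 2.62 (medians). Spread between libraries of a group exceeded sampling noise (mean chi-square 1.75 to 10.7), so none was a copy. On simulated mock and p140Cap counts, 200 of 11738 genes were changed, 94.5% were recovered, and 2.58% of calls were unchanged genes. The simulation gave every gene the same biological spread and changed only well-covered genes. It also changed far fewer genes than the 71.1% called in the data, so these rates do not carry over to this comparison.

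Members, roles and lists were chosen with earlier results of these data known. All 36 members are named. From the list of other pathway genes, Cdkn1a, Bax, Bbc3, Pmaip1 and the 3 largest called changes in each direction are named, and Cdkn2a, Trp63, Trp73, Apaf1, Shisa5, Atm, Chek2, Prkdc and Atr were added after their values were seen. Positions and promoter windows are from RefSeq on GRCm38.p6 (mm10) by symbol, all 36 members matched for positions and 29 for windows. Strand, exon lengths and overlaps are from GENCODE on GRCm39 by Ensembl identifier, which 98.6% of genes matched. Overlaps are not named for every gene. Among those left out, Nudcd2 overlaps Ccng1, Dynlt4 overlaps Plk3 and Fez1 overlaps Ei24, each on the other strand. Alternatives were DESeq2 1.42.0, limma-voom (limma 3.58.1), RLE factors, library totals, other filters, thinning, leaving out each library and a replicate block.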

Additional observations from a re-analysis of the deposited data

How the results depend on the processing

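Of the 34 tested members, 28 kept their direction and their side of the threshold under all 14 alternatives. Under these, 11 to 12 members were lower and 13 higher. A filter of 10 reads in each library takes Fas out of the test. With the replicate number as a block, 11 members were lower and 13 higher, and Ckap2 alone of the called members lost its call (adjusted p = 0.0547, edgeR). Same-numbered libraries deviated with correlations of 0.0055, -0.31 and -0.06, and differently numbered ones with correlations from -0.20 to 0.23. No pairing by number was seen, but 3 libraries per group are too few to tell. Direct targets held 9 to 10 lower and 9 higher, and the other pathway genes 13 to 15 lower and 16 to 18 higher.

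Signs reversed for uncalled genes only. Leaving out each library in turn, the log2 fold change of Ccng1 ran from -0.10 to 0.028, the log2 fold change of Gadd45b from -0.0037 to 0.15, the log2 fold change of Gadd45g from -0.15 to 0.13, the log2 fold change of Plk3 from -0.092 to 0.060, the log2 fold change of Ercc5 from -0.055 to 0.021, the log2 fold change of Hipk2 from -0.11 to 0.086 and the log2 fold change of Triap1 from -0.075 to 0.0027. By limma-voom Gadd45g was at 0.0030, and with thinned libraries Ercc5 was at 0.050. The cause was not tested. Other scalings moved the median of all genes to -0.04 at most. Among the 36 members, depth limits Fas, Gadd45g, Dram1 and Eda2r most, as these had the fewest reads.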
